A study of Bos taurus with 4 samples.

Results

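The desmosome genes examined here were 8 genes of the cell-cell junction called the desmosome: the desmosomal cadherins DSC2, DSC3, DSG2 and DSG3, and the plaque proteins JUP, PKP2, PKP3 and DSP. They were taken as all probes of a bovine embryo microarray whose gene symbol in the array's annotation was one of these names. This gave 11 probes for 7 of the 8 genes, out of 43794 probes and 15229 gene symbols on the array; no probe carried the symbol DSC3, which is not analysed here. DSG2 had 3 probes, DSC2 and DSG3 had 2 each, and DSP, JUP, PKP2 and PKP3 had 1 each. Of the 11 probes, 8 probes of 6 genes gave enough signal to be tested, and the other 3 (the second DSC2 probe, the second DSG3 probe and the PKP3 probe) are described by their signal only.

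The samples were pools of expanded bovine blastocysts, each labelled as 7 embryos, that had grown from morulae produced in vitro and collected at day 7 after fertilisation. In the vitrified group the morulae were passed through ethylene glycol and dimethyl sulfoxide, placed on a Cryotop and plunged into liquid nitrogen, and in the slow-frozen group they were cooled in glycerol at a controlled rate with seeded ice before the plunge. Both groups were warmed and then cultured for 24 to 48 h, and only embryos that reached the expanded blastocyst were pooled, so each group holds its survivors. There were 4 vitrified and 4 slow-frozen pools, 2 of each labelled with Cy5 and 2 with Cy3. Blastocysts of the unfrozen control group were not used here.

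Desmosomes are button-like junctions that tie the intermediate filaments of one epithelial cell to those of its neighbour. Desmogleins and desmocollins, members of the cadherin family, span the membrane and bind each other in the gap between cells. Inside the cell their tails hold plakoglobin and plakophilins, and these hold desmoplakin, which grips the keratin filaments. In the mouse embryo desmosomes form in the trophectoderm, the epithelium that forms the wall of the blastocyst, around the time when the blastocyst cavity fills and expands. In the bovine reference gene table (ARS-UCD2.0) the cadherin genes are neighbours on 1 chromosome, in the order DSG2, DSG3, DSG4, DSG1, DSC1, DSC2 and DSC3.

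The pools differed in brightness, with median raw intensities of 109 to 384. The bound of a pool, the 95th percentile of its negative control spots, was exceeded by 63.3% to 74.1% of all probes. The bound itself ranged from 81 to 332. Along the first principal component, which held 24.8% of the variance over all tested probes, vitrified replicate 3 (56.6) and slow-frozen replicate 2 (-34.3) stood apart from the other 6 pools (-10.2 to 9.56). By the methods, each group was hybridised on a slide of its own, so slide and group cannot be told apart. The methods also describe a single cryotube per treatment from each production cycle, so pools of the groups come from shared cycles, but neither the labels nor the methods say which pools share one; the test below takes the 8 pools as independent. In pooled embryos, fewer cells of a type and less RNA per cell cannot be told apart either. Of the tested markers, 12 of 13 for trophectoderm and 8 of 8 for the inner cell mass exceeded the bound in all 8 pools. A tested probe had to exceed it in at least 3 of 4 pools of a group, which raises these counts. Of all 30034 tested probes, 20161 exceeded it in all 8 pools. The trophectoderm marker HAND1 and the inner cell mass marker FGF4 were not tested. They exceeded the bound in at most 4 and 1 of the 8 pools.

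The signal of a probe over the bound says how firmly its transcript was measured. Each of the 8 tested desmosome probes exceeded the bound in all 8 pools. DSP was at 6.94 to 37.9 times the bound in vitrified pools and 20.3 to 47.9 times in slow-frozen pools, and PKP2 at 8.47 to 26.1 times and 17.3 to 32.7 times in the same groups. The DSG2 probe EMBV3_26821 was at 71.8 to 241 times the bound in vitrified pools and 95.5 to 200 times in slow-frozen pools. JUP was closer to it, at 1.93 to 5.06 times in vitrified and 2.54 to 3.52 times in slow-frozen pools. DSG3 (EMBV3_21904) was only 1.25 to 1.65 times above it in vitrified and 1.38 to 1.83 times in slow-frozen pools. The second DSC2 probe (EMBV3_29179) exceeded the bound in 2 of 4 vitrified and 2 of 4 slow-frozen pools, the PKP3 probe (EMBV3_30294) in 1 of 4 vitrified and 2 of 4 slow-frozen pools, and the second DSG3 probe (EMBV3_34055) in 0 of 4 vitrified and 0 of 4 slow-frozen pools.

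**Figure D1:**
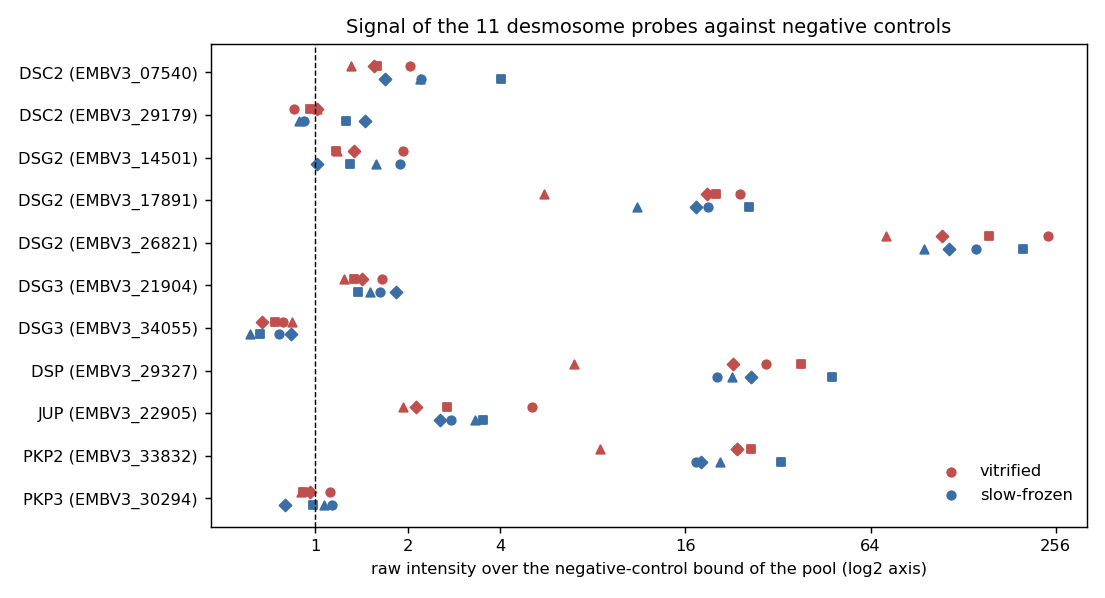
Raw intensity of each of the 11 desmosome probes divided by the negative-control bound of the same pool (log2 axis), with vitrified pools above slow-frozen pools in each row and marker shapes for replicates 1 (circle), 2 (square), 3 (triangle) and 4 (diamond); the dashed line is the bound. The 3 probes that were not tested lie on both sides of the line or left of it, and brightness is not comparable between probes.

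Vitrified and slow-frozen pools were compared to ask whether desmosome transcripts in the blastocyst differ with the way the morula was cryopreserved. By sign, all 8 tested probes were lower in vitrified pools, where 48.6% of all 30034 tested probes were; 3 of the 8 read the same gene, and all were measured in the same pools, so they are not 8 separate observations. Their median difference was -0.24 (log2, vitrified minus slow-frozen), against 0.0056 over all tested probes. One desmosome probe, that of DSC2, had an unadjusted p under 0.05 (limma), with 1 of 8 lower and 0 of 8 higher, while 4.81% of all tested probes reached this in either direction, 2.36% as lower and 2.44% as higher. None passed the Benjamini-Hochberg adjustment (limma, adjusted p from 0.888 to 1.00), which 0.00333% of all tested probes, a single probe, did. None reached both a 2-fold difference and an unadjusted p under 0.05, the call rule of the study, which 0.19% of all tested probes did. In 1 of the 8 probes the groups did not overlap, with vitrified pools below, and 0.982% of all tested probes showed this; 1.48% lay the other way round, with vitrified pools above, which makes 2.47% in either direction.

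**Figure D2:**
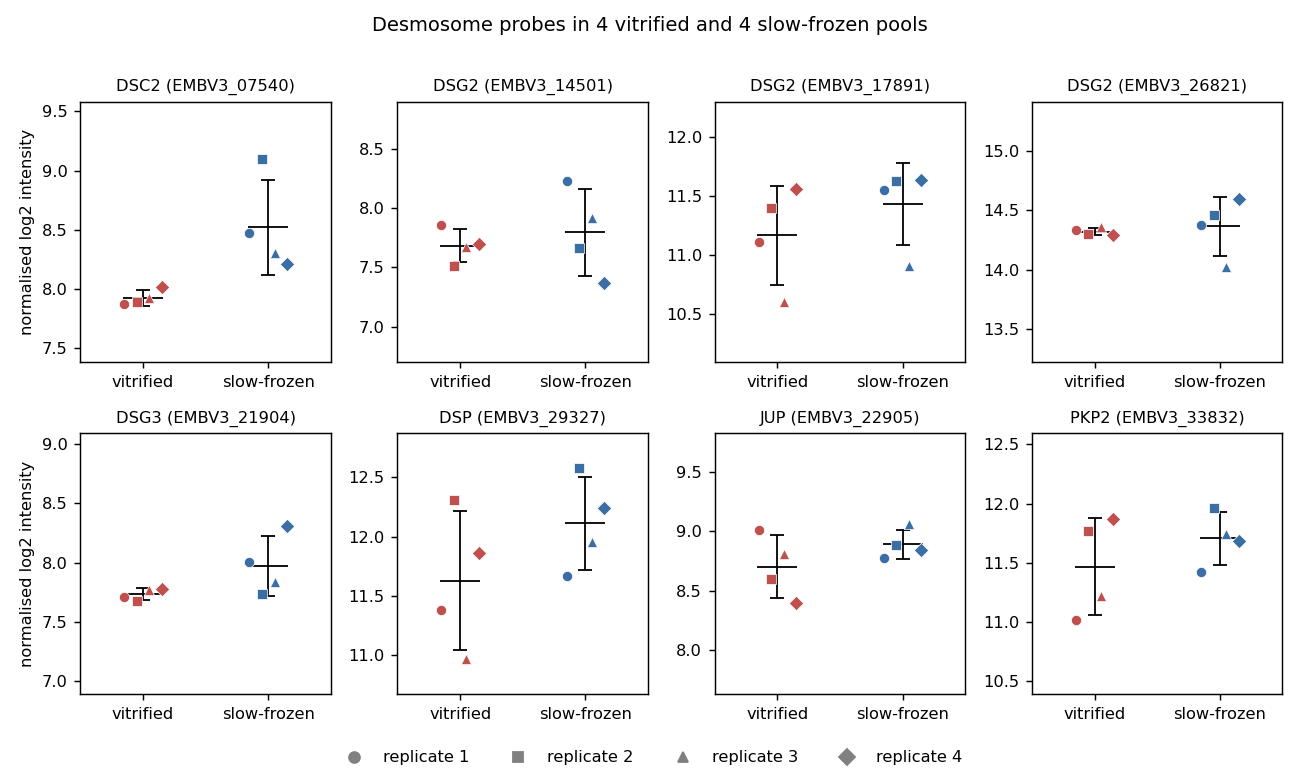
Normalised log2 intensity of the 8 tested desmosome probes in each of 4 vitrified (left, red) and 4 slow-frozen (right, blue) pools, with the mean and SD as black bars and an axis span of equal length in every panel. Only for DSC2 do all vitrified pools lie below all slow-frozen pools.

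DSC2 encodes desmocollin 2, a desmocollin found widely in simple epithelia and in the heart. The paper cites earlier work in which vitrification lowered desmocollin 2 expression in bovine blastocysts, so the gene was already named there. Its tested probe, EMBV3_07540, read 7.87, 7.89, 7.92 and 8.02 in vitrified replicates 1 to 4, and 8.47, 9.10, 8.30 and 8.21 in slow-frozen replicates 1 to 4 (log2 normalised intensity, as all levels below). Every vitrified pool was lower than every slow-frozen pool, the vitrified pools lay close together, and slow-frozen replicate 2 was the highest by a wide margin. The means were 7.93 ± 0.07 in vitrified and 8.52 ± 0.40 in slow-frozen pools (SD, n = 4 each), a difference of -0.59 ± 0.18 (SE) or 1.51-fold lower, with a 95% interval from -0.999 to -0.19. The unadjusted p was 0.00793 and the adjusted p 0.888 (limma), which put the probe at rank 268 of the 30034 by p. Without slow-frozen replicate 2 the difference was -0.41 (limma, unadjusted p = 0.0238, adjusted p = 1.00).

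Every vitrified pool lay below every slow-frozen pool, so the DSC2 difference had to be negative within each dye and each file. Only its size could vary, and the sizes were uneven. Between pools labelled with Cy5 it was -0.90, and between pools labelled with Cy3 it was -0.29. The 4 deposited files each join a vitrified and a slow-frozen pool, and in these the difference was -0.43, -0.32, -0.55 and -1.08; the widest was in the file that holds slow-frozen replicate 2. The signal was low: in raw intensity over the bound, the probe stood at 2.04, 1.59, 1.31 and 1.55 in vitrified replicates 1 to 4, and at 2.21, 4.02, 2.20 and 1.69 in slow-frozen replicates 1 to 4. On this raw scale, before background correction and normalisation, the groups overlapped, since vitrified replicate 1 exceeded slow-frozen replicate 4.

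The second DSC2 probe, EMBV3_29179, read 6.99, 7.22, 7.31 and 7.35 in vitrified replicates 1 to 4, and 7.15, 7.61, 7.03 and 7.95 in slow-frozen replicates 1 to 4. The groups overlapped, and these values lie at the level of the negative controls. Fitted with no filter on dim probes, its difference was -0.22 ± 0.20 (SE).

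Desmoglein 2, the desmoglein of simple epithelia, was read by 3 DSG2 probes, none of which passed the test. EMBV3_26821 read 14.34, 14.30, 14.36 and 14.29 in vitrified replicates 1 to 4, and 14.38, 14.46, 14.02 and 14.60 in slow-frozen replicates 1 to 4. The vitrified values fell between the lowest and the highest slow-frozen value, and the difference was -0.04 ± 0.15 (SE), with a 95% interval from -0.38 to 0.29 (limma, unadjusted p = 0.781); it turned to 0.061 without slow-frozen replicate 4. EMBV3_17891 read 11.11, 11.40, 10.61 and 11.56 in vitrified replicates 1 to 4, and 11.55, 11.63, 10.91 and 11.64 in slow-frozen replicates 1 to 4. Replicate 3 was the lowest pool in both groups, and the groups overlapped, with a difference of -0.26 ± 0.22 (interval -0.76 to 0.23, limma, unadjusted p = 0.266). It was -0.09 without vitrified replicate 3 and -0.47 without vitrified replicate 4 (limma, unadjusted p = 0.0457).

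The third DSG2 probe, EMBV3_14501, was dim, at 1.17 to 1.93 times the bound in vitrified and 1.01 to 1.89 times in slow-frozen pools. It read 7.85, 7.51, 7.67 and 7.70 in vitrified replicates 1 to 4, and 8.23, 7.67, 7.92 and 7.37 in slow-frozen replicates 1 to 4. Slow-frozen pools held both the highest and the lowest value, and the difference was -0.11 ± 0.19 (interval -0.52 to 0.30, limma, unadjusted p = 0.563); it turned to 0.032 without slow-frozen replicate 1. The 3 probes did not follow each other over the 8 pools, as the pairwise Pearson r was -0.15, -0.45 and 0.52. Their mean as 1 value for the gene gave -0.14 ± 0.13.

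DSG3, desmoglein 3, is best known from stratified epithelia such as skin and mouth. Its tested probe, EMBV3_21904, read 7.71, 7.67, 7.77 and 7.77 in vitrified replicates 1 to 4, and 8.003, 7.74, 7.84 and 8.31 in slow-frozen replicates 1 to 4. Slow-frozen replicate 2 lay among the vitrified pools and the other 3 slow-frozen pools above them; the difference was -0.24 ± 0.15 (interval -0.57 to 0.09, limma, unadjusted p = 0.138), and -0.13 without slow-frozen replicate 4. The second DSG3 probe was not above the bound in any pool, and its difference with no filter was 0.04 ± 0.15.

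Desmoplakin, the product of DSP, is the obligate link between the plaque and keratin filaments. The DSP probe, EMBV3_29327, read 11.38, 12.31, 10.97 and 11.86 in vitrified replicates 1 to 4, and 11.67, 12.58, 11.96 and 12.24 in slow-frozen replicates 1 to 4. Vitrified replicates 1 and 3 were lower than every slow-frozen pool, while vitrified replicate 2 was higher than all slow-frozen pools except replicate 2. The means were 11.63 ± 0.58 in vitrified and 12.11 ± 0.39 in slow-frozen pools (SD, n = 4 each), a difference of -0.48 ± 0.28 (SE) with a 95% interval from -1.10 to 0.14 (limma, unadjusted p = 0.114, adjusted p = 1.00).

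The DSP difference moved with the pools used, and in 5 of 20 other settings its unadjusted p was under 0.05. It was -0.71 without vitrified replicate 2 (limma, unadjusted p = 0.0261) and -0.70 without slow-frozen replicate 1 (limma, unadjusted p = 0.0287), but -0.26 without vitrified replicate 3 and -0.03 when vitrified replicate 3 and slow-frozen replicate 2, the pools that stood apart, were both left out. No setting brought it past the adjustment (limma, adjusted p from 0.547 to 1.00 over 20 settings). The difference was -0.28 between Cy5 pools and -0.68 between Cy3 pools.

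**Figure D3:**
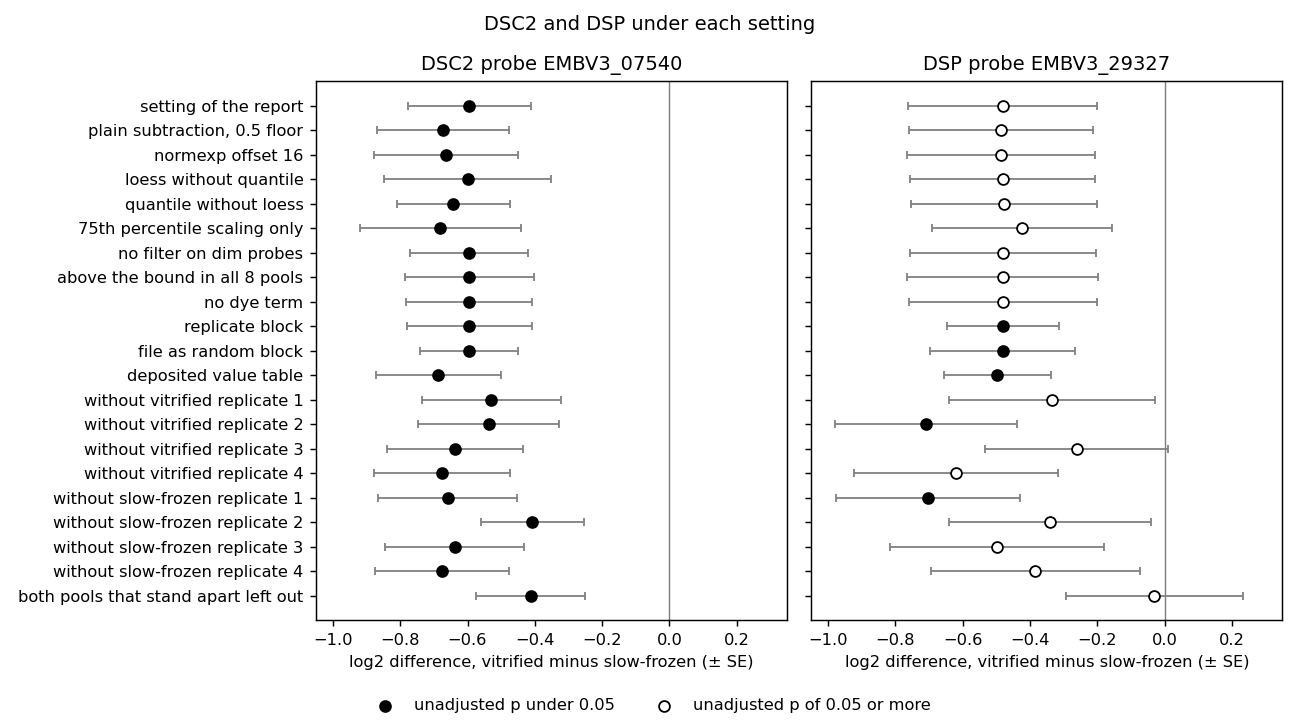
Difference (log2, vitrified minus slow-frozen, ± SE) of the tested DSC2 probe and of the DSP probe under the setting of the report, at the top, and 20 alternatives, with filled points where the unadjusted limma p was under 0.05. DSC2 stays between -0.69 and -0.41 with every point filled, while DSP ranges from -0.71 to -0.03 with 5 filled points.

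JUP encodes plakoglobin, which also takes part in adherens junctions. Its probe, EMBV3_22905, read 9.01, 8.60, 8.81 and 8.39 in vitrified replicates 1 to 4, and 8.77, 8.88, 9.06 and 8.85 in slow-frozen replicates 1 to 4. Vitrified replicates 2 and 4 were lower than every slow-frozen pool and vitrified replicate 1 was higher than 3 of them, so that the groups overlapped. The difference was -0.19 ± 0.16 (interval -0.55 to 0.18, limma, unadjusted p = 0.279). Leaving out vitrified replicate 4 gave -0.07, leaving out slow-frozen replicate 3 gave -0.11, and leaving out vitrified replicate 1 gave -0.30.

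PKP2, plakophilin 2, holds desmoplakin at the plaque in simple epithelia and in the heart. Its probe, EMBV3_33832, read 11.02, 11.77, 11.22 and 11.87 in vitrified replicates 1 to 4, and 11.43, 11.97, 11.75 and 11.69 in slow-frozen replicates 1 to 4. Vitrified replicates 1 and 3 were the lowest pools and the other 2 lay among the slow-frozen pools; the difference was -0.24 ± 0.21 (interval -0.70 to 0.23, limma, unadjusted p = 0.289). It was -0.07 without vitrified replicate 1, -0.12 without vitrified replicate 3 or slow-frozen replicate 2, -0.37 without vitrified replicate 2 and -0.38 without vitrified replicate 4, and it turned to 0.06 when vitrified replicate 3 and slow-frozen replicate 2 were both left out. PKP3, a plakophilin of most epithelia, was at the level of the negative controls, with a difference of -0.10 ± 0.14 with no filter.

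**Figure D4:**
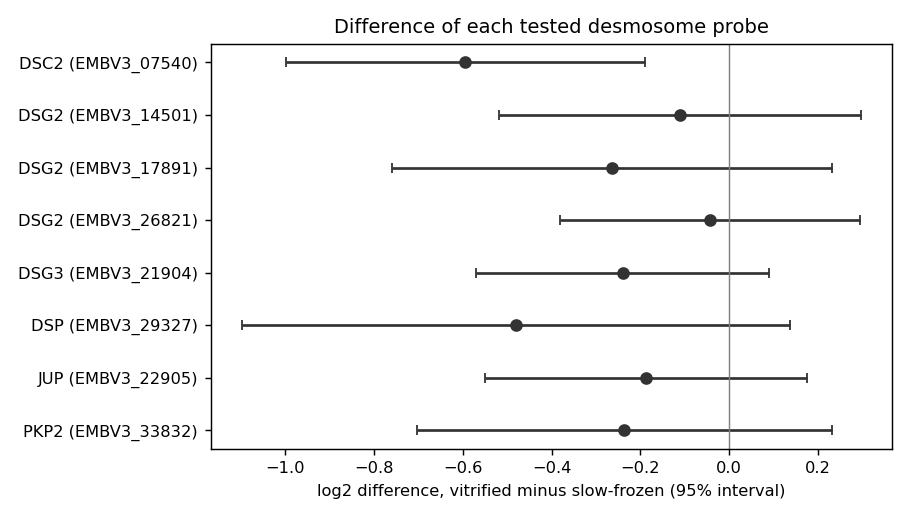
Difference of each tested desmosome probe in log2 units, vitrified minus slow-frozen, with its 95% interval from limma. All 8 points lie left of 0, and the interval of DSC2 is the one that does not reach it.

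Over the pools, the median of the 8 tested probes, each centred on its own mean, was -0.16, -0.11, -0.19 and -0.05 in vitrified replicates 1 to 4, and 0.09, 0.22, 0.08 and 0.18 in slow-frozen replicates 1 to 4. No probe had its highest value in a vitrified pool, and 2 of the 8 had their lowest value in a slow-frozen pool. Slow-frozen replicates 2 and 4 each held the highest value of 3 probes. These are descriptions of probes that were measured together and carry no test.

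The members were then set against each other, with each gene read by its brightest tested probe. DSP and PKP2 followed each other over the 8 pools, with Pearson r = 0.85 (exact permutation p = 0.00744, adjusted p = 0.112 over 15 pairs) and Spearman rho = 0.81 (exact permutation p = 0.0218, adjusted p = 0.327). After taking out the group means r was 0.82, and without the 2 pools farthest in DSP, vitrified replicate 3 and slow-frozen replicate 2, it was 0.80 over the other 6; a dye holds only 4 pools, too few for a value of its own. For the other 14 pairs r lay between -0.38 and 0.57, and 0 of the 15 pairs passed the adjustment. DSC2 and DSP, which showed the widest differences between the groups, had r = 0.57 (exact permutation p = 0.142).

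Among the 11722 other genes, those whose levels were most like DSP over the 8 pools were PECAM1 (r = 0.97, rho = 0.93), an adhesion molecule of endothelium and blood cells, LRRK1 (r = 0.97), a kinase, USP32 (r = 0.97), a deubiquitinase, KLHL5 (r = 0.95) and PACRGL (r = 0.95). Without the 2 pools farthest in DSP these r values were 0.85 to 0.96. Those most like DSC2 were LNX1, a ubiquitin ligase (r = 0.96), YDJC (r = 0.96), PEX11A, a peroxisome protein (r = 0.96), CFL2, an actin-severing cofilin (r = 0.95), and PLCD3, a phospholipase C (r = 0.94), with r of 0.67 to 0.85 without slow-frozen replicates 1 and 2. The pools share 2 groups and 2 dyes, and these values are given as a description with no p. The genes were picked by r over these same pools, so their high r, also with 2 pools left out, is no separate evidence.

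The other desmosome genes, with 8 of 11 tested, were evenly split in sign, with 4 lower and 4 higher in vitrified pools, 0 with an unadjusted p under 0.05 and a median difference of -0.02. Over all tested probes, 48.6% were lower by sign and 4.81% had an unadjusted p under 0.05 (limma). PERP, a membrane protein that desmosome assembly needs in mouse epidermis, averaged 13.38 ± 0.14 in vitrified and 13.73 ± 0.25 in slow-frozen pools (SD, n = 4 each), a difference of -0.35 ± 0.16 (SE; limma, unadjusted p = 0.0546; another probe, -0.17). Periplakin (PPL), a plakin related to desmoplakin, differed by -0.30 ± 0.19, and plakophilin 1 (PKP1), above the bound in 2 of 4 vitrified and 3 of 4 slow-frozen pools, by -0.20 ± 0.14. Of the other cadherins of the cluster, DSG1 differed by 0.05 ± 0.13 and DSC1 by -0.04 ± 0.15 at the brightest tested probe, while DSG4 was not above the bound in enough pools to be tested.

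Of the intermediate filament partners, 10 of 13 genes were tested, 6 lower and 4 higher, with a median of -0.04; 1 lower and 2 higher had an unadjusted p under 0.05. Of all tested probes, 2.36% were lower and 2.44% higher with such a p (limma). KRT19, a keratin of simple epithelia, averaged 13.66 ± 0.70 in vitrified and 14.72 ± 0.92 in slow-frozen pools (SD, n = 4 each), a difference of -1.06 ± 0.41 (SE; limma, unadjusted p = 0.0263). In the other direction DST, dystonin, a plakin that links filaments to other adhesion sites, differed by 0.65 ± 0.24 (limma, unadjusted p = 0.0211). VIM, vimentin, the filament of mesenchymal cells, differed by 0.77 ± 0.32 (limma, unadjusted p = 0.0358) and exceeded the bound in 3 of 4 vitrified and 2 of 4 slow-frozen pools. KRT19 and VIM are genes the study names, so their place here is no independent evidence.

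Adherens junctions share plakoglobin with desmosomes. Their list held 13 symbols, some of them older names of the same gene. From it 9 genes were tested, with 5 lower and 4 higher and a median of -0.03. The 2 with an unadjusted p under 0.05 were both higher in vitrified pools: P-cadherin, CDH3, at 9.41 ± 0.41 in vitrified and 8.81 ± 0.12 in slow-frozen pools (SD, n = 4 each; 0.59 ± 0.19, SE; limma, unadjusted p = 0.00925), and N-cadherin, CDH2, by 0.31 ± 0.13 (limma, unadjusted p = 0.0393). The catenin CTNNA1 differed by 0.20 ± 0.16. Of 28 genes for kinases, proteases, lipid raft proteins and transcription factors that act on desmosomes, 22 were tested, 9 lower and 13 higher, with a median of 0.04. KLF4, an epithelial and pluripotency factor, differed by 0.61 ± 0.24 (limma, unadjusted p = 0.0273), the 1 of these with an unadjusted p under 0.05. GRHL1, known in mouse skin as an activator of desmosomal cadherin genes, differed by -0.36 ± 0.18 (other probes, -0.47 and -0.13), and the protease ADAM10, which cleaves DSG2 in human cells, by -0.24 ± 0.17. In these 4 lists 0 genes passed the adjustment. Their counts stand beside 48.6% of all tested probes lower by sign. With an unadjusted p under 0.05 (limma), 2.36% of all tested probes were lower and 2.44% higher.

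Desmosome genes are epithelial, and markers of the trophectoderm epithelium were also mostly lower in vitrified pools by sign. KRT8 and KRT18, the main keratins of this layer, stand in this list and among the filament partners. Of 14 such markers 13 were tested, 11 lower and 2 higher in vitrified pools, with a median of -0.28; the 3 with an unadjusted p under 0.05 (limma) were all lower, DAB2 by -0.69 ± 0.15, DLX3 by -0.66 ± 0.17 and TFAP2A by -0.95 ± 0.30. These are the brightest probes: the other tested DAB2 probes differed by 0.03, -0.42 and 0.39, and so did not share a direction, and the other TFAP2A probe by -0.22. Their mean level was 10.98 to 11.21 in vitrified pools and 11.28 to 11.53 in slow-frozen pools. Of the inner cell mass markers 8 of 11 were tested, 2 lower and 6 higher, with a median of 0.32 and a mean level of 10.86 to 11.07 in vitrified and 10.46 to 10.83 in slow-frozen pools. The 3 with an unadjusted p under 0.05 (limma) were all higher, SPIC by 0.81 ± 0.19, PRDM14 by 0.68 ± 0.17 and KLF4, which stands in both lists, by 0.61 ± 0.24; the other tested probes of SPIC and PRDM14 differed by 0.44 and 0.35. For all tested probes the shares were 48.6% lower by sign, and 2.36% lower and 2.44% higher with an unadjusted p under 0.05 (limma). The part of the trophectoderm and inner cell mass markers in the desmosome differences was not tested.

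Of the hypoblast markers 6 of 9 were tested, 2 lower and 4 higher, with a median of 0.30 and a mean level of 11.09 to 11.28 in vitrified and 10.37 to 11.26 in slow-frozen pools; 0 had an unadjusted p under 0.05, with PDGFRA at 0.83 ± 0.40 (other probes, 0.08 and 0.18), SPARC at 0.44 ± 0.22 and GATA4 at 0.38 ± 0.25 the nearest. Cumulus and granulosa cells, which also carry junctions and can cling to an embryo, had 7 of 10 markers tested, 6 lower and 1 higher, with a median of -0.07. Their mean level was 7.47 to 7.70 in vitrified and 7.58 to 7.78 in slow-frozen pools, and only 2 of the 7 exceeded the bound in all 8 pools. The markers of this list went both ways. AMH exceeded the bound in 0, FOXL2 in 1 and HAS2 in 1 of the 8 pools, and these were not tested. CYP19A1 and INHBA exceeded it in 4 of 4 vitrified and 4 of 4 slow-frozen pools. FSHR exceeded it in 3 of 4 vitrified and 4 of 4 slow-frozen pools. FSHR (-0.36 ± 0.22), CYP19A1 (-0.13 ± 0.16; another probe, 0.10) and INHBA (0.15 ± 0.20) had the smallest p of this list, and 0 passed.

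**Figure D5:**
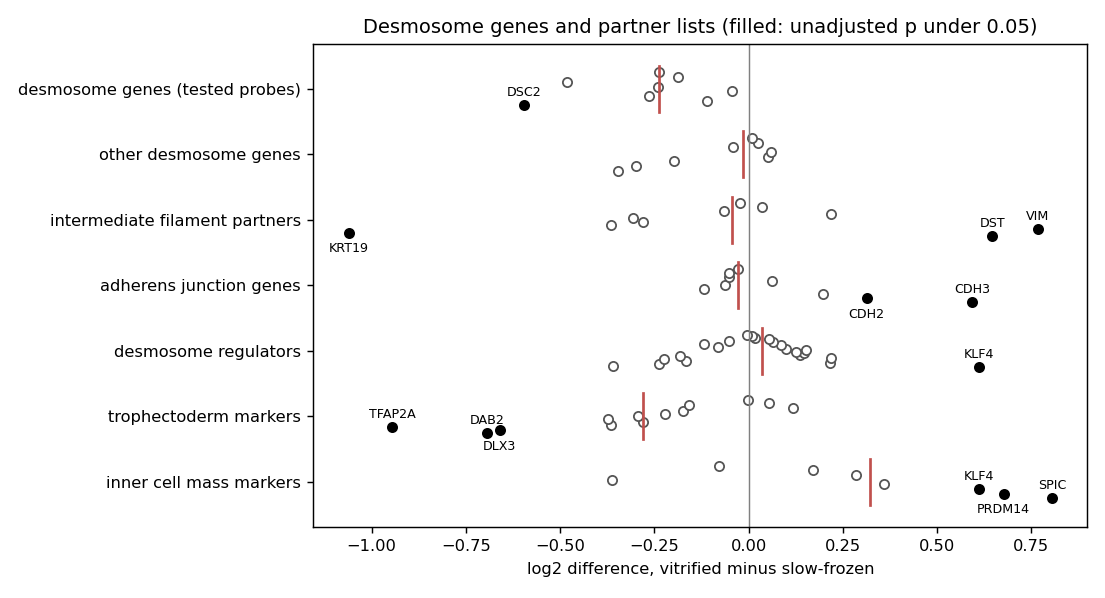
Log2 differences (vitrified minus slow-frozen) of the 8 tested desmosome probes and of the tested genes of 6 lists, each gene by its brightest tested probe; filled points have an unadjusted limma p under 0.05 and red bars are medians. The median is -0.24 for the desmosome probes and -0.28 for trophectoderm markers, between -0.04 and 0.04 for the 4 lists of desmosome partners, and 0.32 for inner cell mass markers.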

How the data were processed

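RNA of each pool was amplified, labelled and hybridised with a control pool, and each of the 4 deposited files joins the channel of a vitrified pool with that of a slow-frozen pool, which the authors did in silico. Its intensity columns, as deposited, give for either channel the median of the spot and of its local surroundings, before any subtraction. Array-wide facts were these: 45220 spots per file, 43794 probes and 1418 control spots. Here normexp (offset 50) removed the background, loess was run within files and quantile normalisation over the 8 channels, on the log2 scale. Probes marked as ignored in any file (58) were left out. A probe was kept where raw intensity exceeded the 95th percentile of 153 negative control spots in at least 3 pools of at least 1 group (30034 probes). The deposited value table holds log2 ratios of Cy5 over Cy3 from the authors, which matched ratios computed here after loess on plainly subtracted values (lowest r 0.999996), and served as an alternative.

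The groups were tested in R 4.3.3 with limma 3.58.1 (two-sided, dye as a term, pools as independent samples), with Benjamini-Hochberg adjustment over all kept probes. In the alternative with the file as a random block, the consensus correlation between the pools of a file was 0.31. Pools of the same file were therefore not fully independent. Replicates are separate production cycles by the methods, shared between the groups, with no source naming which pools share a cycle. Procedures were tested on simulated data. Probe symbols come from the platform annotation, updated for list genes through the reference gene table. A gene of a list is read by its brightest kept probe. Genes named are every member probe, list genes with an unadjusted p under 0.05, the 3 of each list with the smallest p, and the 5 most like DSP and DSC2. Members, lists and tests were chosen with earlier results of these data known. The number of arrays limits precision.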

Additional observations from a re-analysis of the deposited data

Results flagged for a closer look

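One value stood far from the others of its group. The DSG2 probe EMBV3_17891 read 10.9 (log2 normalised intensity) in slow-frozen replicate 3, while the nearest slow-frozen pool read 11.6; the gap was 0.886 of the range of the group, above Dixon's 95% critical value for 4 samples. It was 1 of 22 groups of pools examined, and chance gives such a value in about 1 in 20 groups.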

How the results depend on the processing

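Over 20 alternatives the tested DSC2 probe stayed lower with an unadjusted p under 0.05 (limma, 0.00197 to 0.0321; difference -0.69 to -0.41; adjusted p 0.243 to 1.00), and none brought a desmosome probe past the adjustment. The count of desmosome probes with an unadjusted p under 0.05 was 2, with DSP added, under the file as a random block (9.02% of all probes under 0.05) and in the deposited value table (7.39%), against 4.81% in the report. It was 1 to 2 when 1 pool was left out, with 2 without vitrified replicate 2 (2.90% of all probes), vitrified replicate 4 (5.79%; the DSG2 probe EMBV3_17891 added, -0.47) or slow-frozen replicate 1 (5.61%). The median over the desmosome probes was -0.30 to -0.18 when 1 pool was left out, and -0.14 without both pools that stood apart, an alternative chosen after seeing the data; 37 probes then met the call rule of the study, against 57. That count was 32 to 103 when 1 pool was left out, with 32 without slow-frozen replicate 2, 103 without slow-frozen replicate 1, and 101 without vitrified replicate 4 or slow-frozen replicate 4. The count past the adjustment, 1, was 0 with a normexp offset of 16, with quantile but no loess, with the bound met in all 8 pools, in the value table and without both pools, 3 with 75th percentile scaling, and 0 to 1 when 1 pool was left out. Signs turned for DSG2 EMBV3_26821 (0.0031 with 75th percentile scaling; -0.17 to 0.061 when 1 pool was left out, the highest without slow-frozen replicate 4), DSG2 EMBV3_14501 (-0.25 to 0.032 when 1 pool was left out, the highest without slow-frozen replicate 1) and PKP2 (0.060 without both pools); the cause was not tested. By 75th percentile scaling the median of all probes was -0.04. With the replicate number as a block in place of dye, DSP had an unadjusted p of 0.0195 (limma, difference -0.48). In that fit 2 desmosome probes and 5.10% of all probes were under 0.05, and 0 probes passed the adjustment. Same-numbered pools correlated at 0.16, 0.087, -0.031 and 0.086 in their deviations from the group means. Each of these pairs also shared a dye, which was not removed. Pairs with the same dye but different numbers correlated at 0.048, 0.017, 0.079 and 0.14. These values therefore cannot decide whether a number marks a shared cycle. The numbers were not taken as pairs because no source says which pools share a cycle. Low signal limits the tested probes of DSC2 and DSG3 and the DSG2 probe EMBV3_14501, which lay within 4.02 times the bound.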
